A study of Mus musculus with 18 samples.

Results

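Ccr2 and Cx3cr1, the genes of a pair of chemokine receptors, were followed across 6 groups of splenic conventional dendritic cells (cDC), which differ in genotype and in sorted population. They are 2 of the 24614 genes summed from the tables, and were taken by gene name, with the 4 annotated Ccr2 transcripts and the 3 Cx3cr1 transcripts summed per gene. The groups are ADAM10-deficient (KO) and wild-type (WT) CD4+ cDC2, KO and WT CD4-CD8- cDC2 (called CD4- below), and KO and WT CD8+ cDC1, with 3 libraries each. All came from spleens of C57BL/6 mice and were sorted as living CD11c+MHCII+ cells after magnetic enrichment for CD11c. ADAM10 is a protease of the cell membrane whose substrates include the Notch receptors. The labels do not say how the gene was removed, in which cells, or at what age the animals were used, and they do not say whether the libraries of a group came from separate animals, so the p-values rest on library-to-library spread, part or all of which may be technical.

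CCR2 is a G protein-coupled receptor that binds CCL2 and related chemokines and is best known for leading monocytes out of the bone marrow. CX3CR1 is the receptor of fractalkine, which is encoded by Cx3cl1, is made as a membrane-anchored chemokine and can be released by ADAM10 or ADAM17. In mouse spleen, both receptor genes are known from monocytes and from the cDC2 fraction with little of the adhesion molecule ESAM, while ESAM-high cDC2 depend on Notch2. CX3CR1 is also known on patrolling monocytes, on NK cells and on a minor CD8-bearing dendritic cell fraction that shares genes with plasmacytoid dendritic cells (pDC).

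Both genes lie on mouse chromosome 9, 4032 kb apart. In GRCm38 (GENCODE M21), Ccr2 (ENSMUSG00000049103.14) occupies the plus strand from 124101950 to 124113557, inside a cluster of chemokine receptor genes. Cx3cr1 (ENSMUSG00000052336.7) occupies the minus strand from 119901616 to 120069879, with Ccr8 at a distance of 22.2 kb. The start regions of both genes are shown because the genes rose together in cDC2 and moved in opposite directions in cDC1. They come from RefSeq on GRCm38.p6 and run from 250 bases before to 50 bases after the annotated start, 5′ to 3′ on the strand of the gene. The Ccr2 window is chr9:124101933-124102232 on the plus strand and the Cx3cr1 window chr9:120068247-120068546 on the minus strand. Capitals mark matches, on either strand, to 7 short motifs chosen with the results known.
Ccr2: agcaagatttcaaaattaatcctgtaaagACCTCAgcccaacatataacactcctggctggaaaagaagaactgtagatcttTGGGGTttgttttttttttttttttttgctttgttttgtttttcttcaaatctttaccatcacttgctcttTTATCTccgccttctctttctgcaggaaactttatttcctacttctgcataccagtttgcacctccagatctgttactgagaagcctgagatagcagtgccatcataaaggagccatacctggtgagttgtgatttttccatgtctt
Cx3cr1: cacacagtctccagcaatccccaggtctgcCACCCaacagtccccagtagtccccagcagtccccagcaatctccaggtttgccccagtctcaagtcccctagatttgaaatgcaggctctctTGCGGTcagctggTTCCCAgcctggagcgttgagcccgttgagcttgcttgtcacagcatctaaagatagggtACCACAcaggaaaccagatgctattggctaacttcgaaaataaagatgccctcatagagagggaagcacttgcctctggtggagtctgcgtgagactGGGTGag
The motifs were TGGGAA for RBPJ, the DNA-binding partner of Notch, GAGGAA for PU.1, TTGCNNAA for C/EBP, TGNGGT for RUNX, CACCC for KLF, AGATAA for GATA and GAAA, any 2 bases and GAAA for IRF factors. The RBPJ letters had 1 match in the Cx3cr1 window and 0 in the Ccr2 window, and 25.6% of 32851 promoter windows of this length held at least 1. RUNX letters had 2 matches in each window (45.8% of all windows), KLF letters 2 in Cx3cr1 and 0 in Ccr2 (57.5%), and GATA letters 1 in Ccr2 and 0 in Cx3cr1 (11.2%). The PU.1, C/EBP and IRF letters, held by 28.3%, 10.8% and 3.44% of all windows, had 0 matches in either. No motif overlapped another in these windows. A match is a description of letters and not a binding site.

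Totals ran from 12358884 to 19557469 estimated counts per library, and 13381 genes passed the filter on low counts, both receptor genes among them. Adam10 itself had 41.6 to 45.9 CPM (read counts scaled to a common library size) in KO CD4+ libraries against 80.55 to 129.5 in WT CD4+ libraries, 41.7 to 47.45 against 88.3 to 138.4 in CD4- cells, and 28.7 to 36.4 against 56.97 to 98.97 in CD8+ cells. The sorted populations carried their defining RNAs: Cd8a averaged 588 CPM in KO and 1060 CPM in WT CD8+ cells and at most 5.90 CPM in the other groups, and Cd4 averaged 433 CPM in KO and 443 CPM in WT CD4+ cells and at most 6.40 CPM elsewhere. All comparisons used edgeR's quasi-likelihood test over all 18 libraries, two-sided, with p-values adjusted over the 13381 genes by the Benjamini-Hochberg method. Fold changes are given as log2 ± a standard error derived from that test. It is the absolute log2 fold change divided by the square root of the test's F statistic. The words "rose" and "fell" stand for an adjusted p under 0.05. The genes, and the attention to CD8+ cells, were chosen with earlier results of these data known.

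In CD4+ cDC2 both receptor genes were much higher without ADAM10. Ccr2 had 916.9, 779.1 and 1096 CPM in the KO CD4+ libraries, against 70.5, 81.3 and 70.7 CPM in the WT CD4+ libraries. The lowest KO library was far above the highest WT library, and the KO group spread more (coefficient of variation 17.1% in KO and 8.34% in WT). Ccr2 rose 12.5-fold (log2 3.65 ± 0.12, adjusted p 4.18e-12, n = 3 per group in edgeR), which made it number 118 of 13381 genes by size of the rise. Cx3cr1 had 369.3, 414.2 and 443.7 CPM in KO CD4+ libraries, against 84.8, 73.95 and 70.4 CPM in WT CD4+ libraries. It rose 5.35-fold (log2 2.42 ± 0.20, adjusted p 7.54e-08 in edgeR) and the libraries of the groups did not overlap. Here and below, the share of all genes whose libraries separate was not counted. Non-overlap therefore only describes these libraries. Calls were frequent in this comparison, with 35.1% of genes passing in either direction, 18.5% as rises and 16.6% as falls. In RNA of whole populations, here and below, a change in cell composition and a change in RNA per cell cannot be told apart.

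In CD4- cDC2 the same direction was seen on higher WT levels. Ccr2 had 1186, 1374 and 1287 CPM in KO CD4- libraries, against 332.1, 328.8 and 321.5 CPM in WT CD4- libraries, which were the most uniform of the 6 groups (coefficient of variation 1.66%). The gene rose 3.92-fold (log2 1.97 ± 0.11, adjusted p 6.09e-09 in edgeR). Cx3cr1 had 327.5, 390.9 and 432.2 CPM in KO CD4- libraries, against 161.9, 145.5 and 148.8 CPM in WT CD4- libraries. It rose 2.52-fold (log2 1.33 ± 0.19, adjusted p 7.08e-05 in edgeR). The background of calls was 25.9% in either direction, 14.6% as rises and 11.3% as falls. The libraries of the groups did not overlap for either gene, again without a share over all genes to set beside it.

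In CD8+ cDC1 the genes moved in opposite directions. Ccr2 had 615.5, 671.5 and 688.7 CPM in KO CD8+ libraries, against 144.0, 130.4 and 148.1 CPM in WT CD8+ libraries. It rose 4.68-fold (log2 2.22 ± 0.11, adjusted p 3.60e-09 in edgeR), number 82 of 13381 genes by size of the rise. Cx3cr1 had 7.89, 5.65 and 11.2 CPM in KO CD8+ libraries, against 52.6, 34.6 and 60.5 CPM in WT CD8+ libraries. Every KO library was below every WT library, from 81 to 173 estimated reads in KO and 484 to 801 in WT. Cx3cr1 fell by 2.57 on the log2 scale (± 0.22, adjusted p 5.74e-07 in edgeR), to 0.168 of the WT level, number 212 by size of the fall. Both WT and KO CD8+ groups spread more for this gene than the other groups, with coefficients of variation of 34.1% in KO and 26.9% in WT. In this comparison 15.7% of genes passed, 6.99% as rises and 8.67% as falls.

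**Figure D1:**
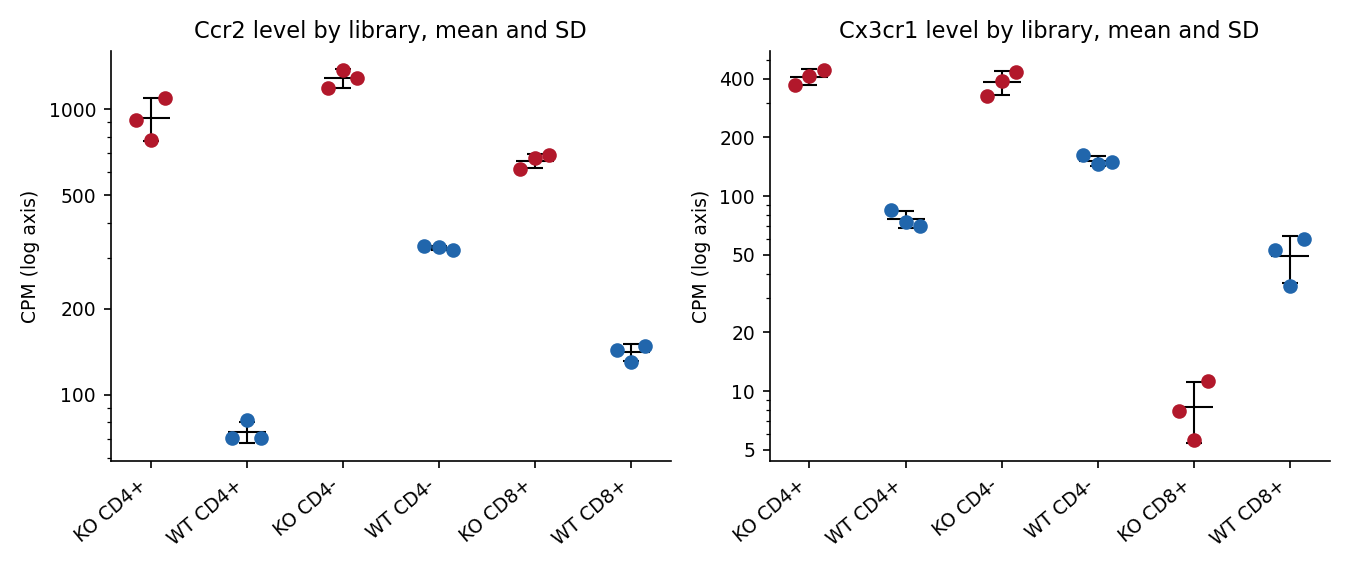
Level of Ccr2 (left) and Cx3cr1 (right) in CPM on a log axis, 1 point per library, in the 6 groups (KO red, WT blue). Horizontal bars are group means and vertical bars SD (n = 3). Ccr2 is higher in KO than in WT cells of each population, while Cx3cr1 is higher in KO CD4+ and CD4- cells and lower in KO CD8+ cells.

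The differences between these effects were tested directly. The effect of the knockout on Cx3cr1 was larger by 4.99 ± 0.29 on the log2 scale in CD4+ than in CD8+ cells (adjusted p 1.80e-08 in edgeR), in a comparison in which 22.1% of genes passed. It was larger by 3.90 ± 0.29 in CD4- than in CD8+ cells (adjusted p 4.09e-07 in edgeR, 13.2% of genes). Between CD4+ and CD4- cells the effect on Cx3cr1 differed by 1.09 ± 0.27 (adjusted p 0.0304 in edgeR, 3.76% of genes), a call that missed the threshold in 8 of the 18 fits without 1 library, with adjusted p from 0.0544 to 0.0813 in these. Those were the fits without KO CD4- library 1 or 2, KO CD4+ library 2 or 3, WT CD4- library 1 or 3, or WT CD4+ library 2 or 3. For Ccr2 the effect was larger in CD4+ than in CD4- cells by 1.68 ± 0.15 (adjusted p 1.47e-05 in edgeR) and larger in CD4+ than in CD8+ cells by 1.42 ± 0.15 (adjusted p 4.08e-06). Between CD4- and CD8+ cells the effect on Ccr2 differed by -0.26 ± 0.15 (adjusted p 0.304 in edgeR), which did not pass.

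**Figure D2:**
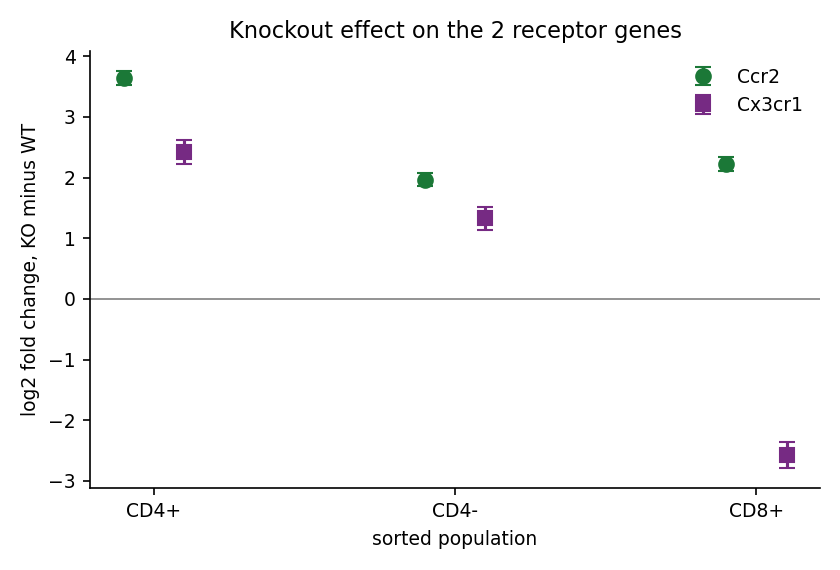
Log2 fold change, KO minus WT, of Ccr2 (green circles) and Cx3cr1 (purple squares) in each sorted population. Bars are the standard error derived from the edgeR test. The line at 0 is no change. Cx3cr1 is at 2.42 in CD4+, 1.33 in CD4- and -2.57 in CD8+ cells, while Ccr2 is above 0 in all 3 populations.

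The groups fell in a different order for each gene. For Ccr2 the order of mean levels, from high to low, was KO CD4- (1282 ± 94.0 CPM, SD, n = 3), KO CD4+ (931 ± 159), KO CD8+ (659 ± 38.3), WT CD4- (327.5 ± 5.44), WT CD8+ (141 ± 9.26) and WT CD4+ (74.2 ± 6.18). All 3 KO groups were thus above all 3 WT groups, and all neighbours in this order passed the test of their own difference. The smallest steps were those between KO groups. KO CD4+ minus KO CD4- was -0.46 ± 0.10 (adjusted p 0.0102 in edgeR, 7.95% of genes), a call lost when library 2 of KO CD4- (adjusted p 0.0546) or library 2 of KO CD4+ (0.0504) was left out. KO CD4+ minus KO CD8+ was 0.50 ± 0.10 (adjusted p 0.000705 in edgeR, 50.8% of genes). KO CD8+ cells stood above WT CD4- cells by 1.01 ± 0.10 (adjusted p 5.45e-07 in edgeR).

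For Cx3cr1 the order was KO CD4+ (409 ± 37.5 CPM, SD, n = 3), KO CD4- (383.5 ± 52.8), WT CD4- (152.1 ± 8.65), WT CD4+ (76.4 ± 7.50), WT CD8+ (49.3 ± 13.3) and KO CD8+ (8.26 ± 2.81). KO CD4+ and KO CD4- libraries overlapped, and their difference of 0.09 ± 0.19 on the log2 scale did not pass (adjusted p 0.838 in edgeR). The step between WT CD4+ and WT CD8+ cells, 0.63 ± 0.19, was small (adjusted p 0.0128 in edgeR, 45.6% of genes) and was lost when library 1 of WT CD4+ (adjusted p 0.0501) or library 2 of WT CD8+ (0.0668) was left out. All other neighbours passed. Among WT cells, then, CD4- cDC2 had the highest level of both genes: Ccr2 was higher there than in CD8+ cells by 1.22 ± 0.11 and Cx3cr1 by 1.63 ± 0.19 (adjusted p 1.11e-07 and 4.05e-06 in edgeR, 42.9% of genes). WT CD4+ minus WT CD4- was -2.14 ± 0.11 for Ccr2 and -0.99 ± 0.19 for Cx3cr1 (adjusted p 3.42e-09 and 0.00153 in edgeR, 16.7% of genes). Markers of other cells also differed between these WT populations, and their part in these differences was not tested. All 9 NK cell markers were higher in WT CD4- than in WT CD8+ cells and lower in WT CD4+ than in WT CD4- cells, and the list summed to 410 to 848 CPM in WT CD4-, 87.9 to 104 CPM in WT CD4+ and 76.8 to 103.6 CPM in WT CD8+ libraries. Klrd1 alone made up most of the sum in WT CD4+ and WT CD8+ cells (means of 91.3 and 57.9 CPM). Of the 9 markers, 6 were lower and 1 higher in WT CD4+ than in WT CD8+ cells, where 45.6% of all genes passed in either direction. Of 8 T cell markers 7 were higher in WT CD4- than in WT CD8+ cells. In WT CD4+ against WT CD4- cells 7 were lower and 1 higher. Of 7 tested classical monocyte markers 4 were higher in the first of these comparisons and 4 lower in the second. Of 7 non-classical monocyte markers 5 were higher and 1 lower in the first, and 1 higher and 4 lower in the second. For 11 red pulp macrophage markers the counts were 7 and 1, then 4 and 2. All 10 cDC1 markers were lower in the first and 7 in the second. Calls in either direction took 42.9% of all genes in the first and 16.7% in the second. Shares by direction are not given for these WT comparisons. WT CD4+ cells had less Ccr2 than WT CD8+ cells (-0.92 ± 0.11, adjusted p 1.97e-06), the reverse of Cx3cr1. In KO cells, CD4- minus CD8+ was 0.96 ± 0.10 for Ccr2 and 5.53 ± 0.24 for Cx3cr1 (adjusted p 1.04e-06 and 2.44e-11 in edgeR, 46.6% of genes), and CD4+ minus CD8+ was 5.62 ± 0.24 for Cx3cr1 (adjusted p 8.32e-12).

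TPM, which are scaled per transcript length, allow one gene to be set beside the other. Ccr2 averaged 190 ± 29.2 TPM in KO and 16.6 ± 0.853 TPM in WT CD4+ cells, 268 ± 15.0 and 83.4 ± 5.24 TPM in KO and WT CD4- cells, and 125 ± 15.7 and 31.6 ± 2.25 TPM in KO and WT CD8+ cells (SD, n = 3). Cx3cr1 averaged 53.3 ± 5.67 TPM in KO and 11.0 ± 1.31 TPM in WT CD4+ cells, 53.7 ± 7.61 and 25.6 ± 0.559 TPM in KO and WT CD4- cells, and 1.08 ± 0.521 and 7.48 ± 2.14 TPM in KO and WT CD8+ cells (SD, n = 3). Ccr2 was the more abundant RNA in all 18 libraries. Its TPM was 3.27 to 3.76 times that of Cx3cr1 in KO and 1.30 to 1.68 times in WT CD4+ libraries. The range was 4.50 to 5.45 times in KO and 3.02 to 3.44 times in WT CD4- libraries. In CD8+ cells the ratio was 84.65 to 183.8 in KO libraries and 3.61 to 5.72 in WT libraries, so KO CD8+ cells stood apart from the other 5 groups. Ccr2 had a higher TPM than 94.5% of the tested genes in KO and 81.25% in WT CD8+ cells, and Cx3cr1 a higher TPM than 26.5% in KO and 55.8% in WT CD8+ cells.

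**Figure D3:**
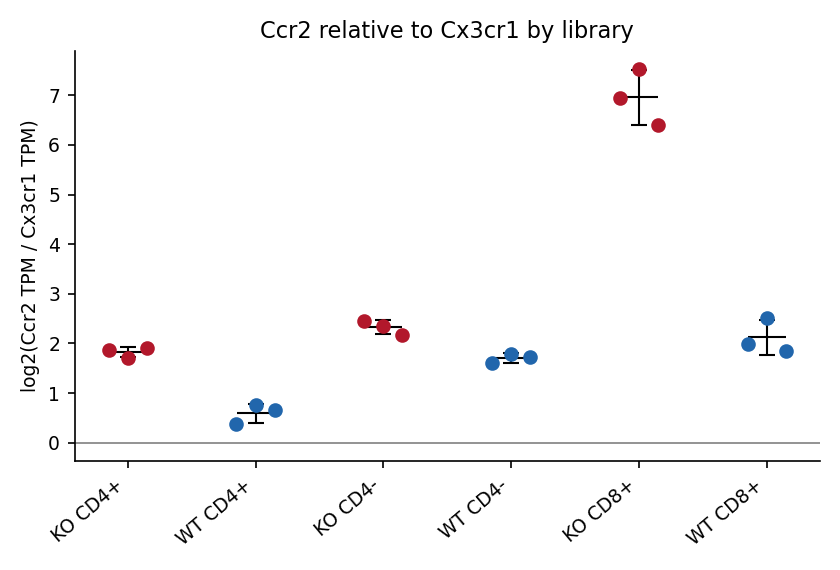
Log2 ratio of Ccr2 TPM to Cx3cr1 TPM, 1 point per library, with group mean and SD (n = 3; KO red, WT blue). The KO CD8+ group averages 6.96, and the other 5 groups average between 0.59 and 2.32.

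The annotated transcripts of each gene overlap in most of their exons, so their estimated shares are less certain than the sums. The 1-exon Ccr2 transcript (ENSMUST00000165984.2, 124105626 to 124109140) held the largest share of the gene's TPM in all 6 groups, averaging 63.7% ± 5.18 in KO and 57.9% ± 3.38 in WT CD8+ cells (SD, n = 3). The 3-exon transcript (ENSMUST00000055918.6) averaged 23.7% ± 4.95 in KO and 31.65% ± 2.99 in WT CD8+ cells. The remaining Ccr2 transcripts each held less than 10% on average in every group. Of the windows of 59 bases, the length of the reads, 94 of 2941 in the 3-exon transcript (3.20%) also occur outside the gene's transcripts, so a small part of the Ccr2 reads could be shared. For Cx3cr1, only 9 of 3098 windows of the transcript that reaches furthest downstream (ENSMUST00000177637.1) are absent from the gene's other transcripts. Its largest exon has 3065 bases, against 3661 bases in the 2-exon transcript (ENSMUST00000064165.4), which thus holds bases that the longer-reaching transcript lacks. The longer-reaching transcript was estimated at 0 TPM in KO CD8+ libraries 1 and 2 and at 1.14 TPM in library 3, where it took 68.5% of the gene, against 2.78 to 4.62 TPM in WT CD8+ libraries. The 2-exon transcript had 0.524 to 0.870 TPM in KO and 2.28 to 4.46 TPM in WT CD8+ libraries, so the lower level was seen in this transcript as well.

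**Figure D4:**
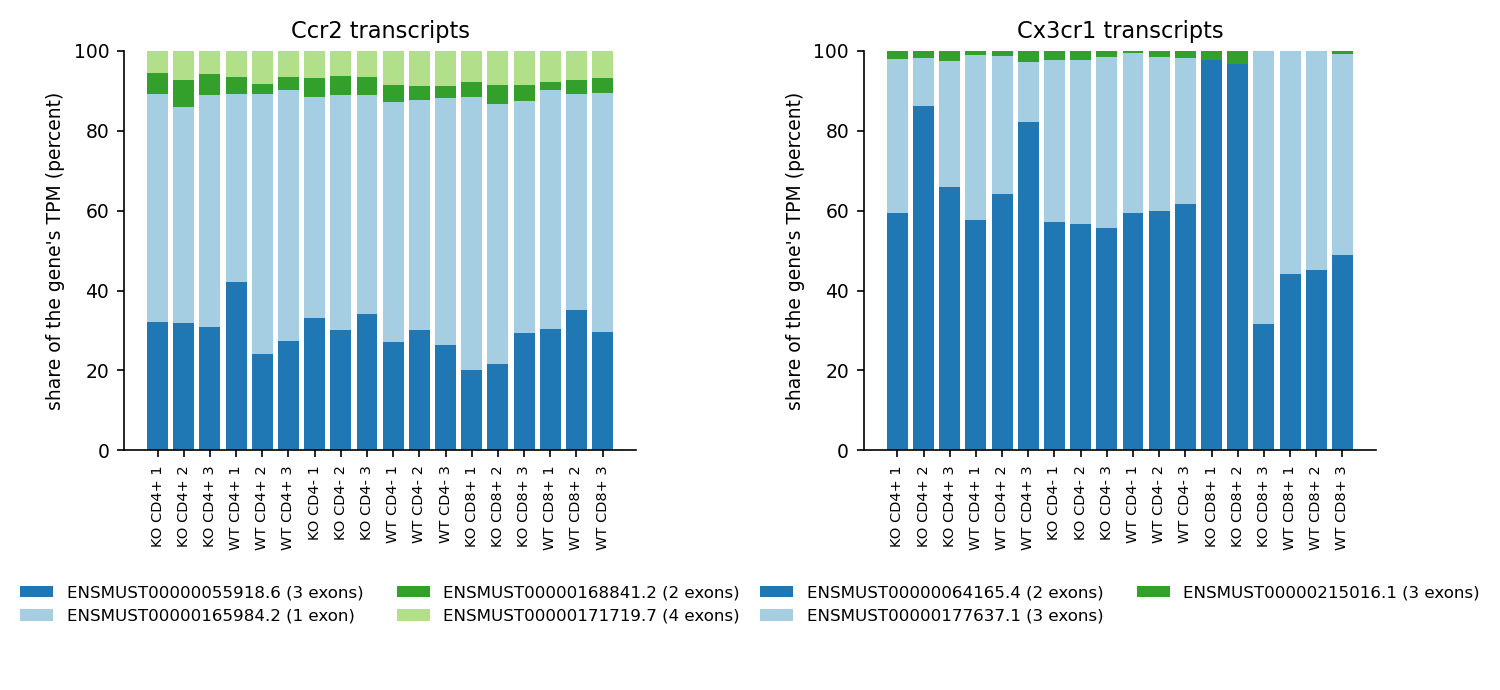
Share of each annotated transcript in the TPM of Ccr2 (left) and Cx3cr1 (right), in percent, 1 bar per library. The 1-exon transcript holds the largest share of Ccr2 in every library, while the split between the main Cx3cr1 transcripts varies, most of all among the 3 KO CD8+ libraries.

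Among the ligand genes, 3 of 6 listed passed the filter on low counts, and Ccl12, Ccl8 and Ccl11 stayed below it with at most 24 estimated counts in any library. Ccl2, the main ligand of CCR2, averaged 14.9 CPM in KO and 1.06 CPM in WT CD4+ cells, 6.07 and 0.678 CPM in KO and WT CD4- cells, and 6.10 and 1.41 CPM in KO and WT CD8+ cells. It rose in all 3 populations (log2 3.78 ± 0.48, 3.17 ± 0.52 and 2.10 ± 0.47, adjusted p 9.32e-06, 0.000253 and 0.00512 in edgeR). Ccl7, another CCR2 ligand, averaged 0.818 CPM in KO and 0.0201 CPM in WT CD4+ cells and passed there (log2 4.88 ± 1.23, adjusted p 0.00515 in edgeR). It did not pass in CD4- or CD8+ cells (log2 2.33 ± 1.15 and 2.08 ± 0.95, adjusted p 0.157 and 0.169). Cx3cl1, the ligand of CX3CR1, averaged 2.04 CPM in KO and 0.323 CPM in WT CD4+ cells and rose there (log2 2.60 ± 0.54, adjusted p 0.00116 in edgeR). In CD4- cells it averaged 1.58 CPM in KO and 1.40 CPM in WT, and in CD8+ cells 2.10 CPM in KO and 3.41 CPM in WT, and did not pass in either (log2 0.18 ± 0.48 and -0.70 ± 0.45, adjusted p 0.832 and 0.350 in edgeR).

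Of 9 other chemokine receptor genes of chromosome 9, 7 were tested. Of these, 3 passed as rises and 0 as falls in CD4+ cells, where 18.5% of all genes rose and 16.6% fell, with a list median of 0.35 on the log2 scale against 0.02 over all genes tested. There were 5 rises and 0 falls in CD4- cells (14.6% and 11.3% of all genes, median 0.61 against 0.02), and 1 rise and 2 falls in CD8+ cells (6.99% and 8.67% of all genes, median -0.45 against 0.00). Ccr1, 133 kb from Ccr2, had the directions of Cx3cr1. It averaged 35.3 CPM in KO and 4.05 CPM in WT CD4+ cells, 64.1 and 13.9 CPM in KO and WT CD4- cells, and 6.75 and 25.4 CPM in KO and WT CD8+ cells (log2 3.12 ± 0.34, 2.20 ± 0.31 and -1.91 ± 0.33, adjusted p 2.07e-06, 6.51e-05 and 0.000593 in edgeR). Ccrl2, an atypical receptor that binds chemerin, was 11.2 CPM in KO and 25.2 CPM in WT CD8+ cells, where it fell (log2 -1.17 ± 0.13, adjusted p 1.08e-05 in edgeR). Xcr1, the XCL1 receptor that marks cDC1, averaged 1011 CPM in KO and 746 CPM in WT CD8+ cells and did not pass there (log2 0.44 ± 0.22, adjusted p 0.221).

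Genes that act downstream of chemokine receptors went both ways. All 27 listed were tested: there were 7 rises and 10 falls in CD4+ cells (median -0.05, against 18.5% rises and 16.6% falls over all genes), 7 rises and 6 falls in CD4- cells (median 0.05, against 14.6% and 11.3%), and 6 rises and 3 falls in CD8+ cells (median 0.16, against 6.99% and 8.67%). Arrb1, a beta-arrestin that takes up activated receptors, rose in all 3 populations (125.6 CPM in KO and 44.5 CPM in WT CD4+ cells with adjusted p 5.89e-08, log2 1.09 ± 0.12 in CD4- and 0.92 ± 0.12 in CD8+ cells with adjusted p 5.26e-06 and 3.91e-05 in edgeR). Rgs1, which shortens G protein signals from chemokine receptors, fell in all 3. It averaged 53.5 CPM in KO and 291 CPM in WT CD4+ cells, 30.8 and 158 CPM in KO and WT CD4- cells, and 20.9 and 57.8 CPM in KO and WT CD8+ cells (log2 -2.45 ± 0.21, -2.37 ± 0.21 and -1.47 ± 0.22, adjusted p 1.33e-07, 7.93e-07 and 0.000140 in edgeR). Elmo1, a partner of the Rac activators of the DOCK family, also fell in all 3 (log2 -1.16 ± 0.10, -0.88 ± 0.10 and -0.38 ± 0.10, adjusted p 8.86e-08, 5.48e-06 and 0.0123). Gnai2, the main inhibitory G protein of leukocytes, rose by 0.25 ± 0.08 in CD4+ and 0.25 ± 0.08 in CD4- cells (adjusted p 0.0146 and 0.0208 in edgeR), and was at 0.19 ± 0.08 in CD8+ cells (adjusted p 0.110). Nup85, known as FROUNT when it binds the tail of CCR2, fell in CD4+ cells (log2 -0.37 ± 0.09, adjusted p 0.00370) and did not pass in the others.

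Of 19 myeloid transcription regulators, 7 rose and 4 fell in CD4+ cells (median 0.25, against 18.5% rises and 16.6% falls over all genes). In CD4- cells 4 rose and 3 fell (median -0.11, against 14.6% and 11.3%), and in CD8+ cells 2 rose and 7 fell (median -0.15, against 6.99% and 8.67%). Zeb2, a repressor that supports monocytes, cDC2 and pDC, had the directions of Cx3cr1. It averaged 165 CPM in KO and 60.1 CPM in WT CD4+ cells, 142 and 71.4 CPM in KO and WT CD4- cells, and 5.38 and 19.7 CPM in KO and WT CD8+ cells (log2 1.46 ± 0.22, 0.99 ± 0.21 and -1.86 ± 0.27, adjusted p 5.52e-05, 0.00254 and 0.000129 in edgeR). Irf4, a factor of cDC2, averaged 10.7 CPM in KO and 55.1 CPM in WT CD8+ cells and fell there (log2 -2.36 ± 0.19, adjusted p 3.13e-07). Tcf4 (log2 -1.11 ± 0.21) and Runx2 (-1.36 ± 0.24), regulators known from pDC, also fell in CD8+ cells (adjusted p 0.00163 and 0.000654 in edgeR), and Id2, a factor of cDC1, rose there (0.55 ± 0.14, adjusted p 0.00981). Rbpj rose in all 3 populations (log2 0.69 ± 0.13, 0.94 ± 0.13 and 0.68 ± 0.13, adjusted p 0.000556, 6.29e-05 and 0.00163).

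Most genes known with Ccr2 and Cx3cr1 from ESAM-low cDC2 were called in the same direction as both in cDC2 and went both ways in cDC1. Of 11 such genes, 10 rose and 0 fell in CD4+ cells (median 2.19), 8 rose and 0 fell in CD4- cells (median 1.47), and 5 rose and 3 fell in CD8+ cells (median -0.36), against medians over all genes of 0.02, 0.02 and 0.00. Over all genes, 18.5% rose in CD4+ cells, 14.6% rose in CD4- cells, and 6.99% rose and 8.67% fell in CD8+ cells. Tlr4 did not pass in CD4+ cells (adjusted p 0.0855 in edgeR), and Tlr4, Csf3r and Fcgr1 did not pass in CD4- cells (adjusted p 0.0758, 0.605 and 0.746). The list was chosen with results of these samples known. Lyz2, a lysozyme gene, rose in CD8+ cells as Ccr2 did (921 CPM in KO and 162 CPM in WT, log2 2.50 ± 0.14, adjusted p 1.19e-08 in edgeR). Clec12a, an inhibitory lectin, rose there too (log2 0.71 ± 0.14, adjusted p 0.00234). Csf1r, the receptor of M-CSF, fell in CD8+ cells as Cx3cr1 did (10.7 CPM in KO and 73.6 CPM in WT, log2 -2.77 ± 0.17, adjusted p 2.71e-08), although it rose in CD4+ cells (log2 0.98 ± 0.15, adjusted p 8.78e-05).

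Over the 18 libraries the patterns of the receptor genes were not alike. Pearson's r of log2 CPM between Ccr2 and Cx3cr1 was 0.314 over all 18 libraries and 0.974 over the 12 CD4+ and CD4- libraries, as a description of libraries that share groups and depth. Of 10520 genes with a mean of at least 5 CPM in some group, Cx3cr1 was number 2604 by likeness to Ccr2. Among the 8 genes most like Ccr2 were Vim (r 0.986), Arhgap26, Fcgr2b, Fxyd5, Cysltr1, Golm1 and Xylt1 (0.950). Vim, which encodes vimentin, averaged 1665 CPM in KO and 371 CPM in WT CD4+ cells, 2120 and 1054 CPM in KO and WT CD4- cells, and 1495 and 618 CPM in KO and WT CD8+ cells. Fcgr2b, the inhibitory Fc receptor, averaged 164.5 and 25.0 CPM in KO and WT CD4+ cells, 169 and 77.1 CPM in KO and WT CD4- cells and 99.9 and 38.1 CPM in KO and WT CD8+ cells. All 8 passed as rises in all 3 populations, which the choice by likeness to Ccr2 favours.

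The 8 genes most like Cx3cr1 were Cd209a (r 0.990), Arhgef18, Spib, Cybb, Gm5431, Wls, Fcer2a and Rbpms (0.979). Cd209a, a lectin of monocyte-derived cells and cDC2, averaged 1121 CPM in KO and 230 CPM in WT CD4+ cells, 1340 and 415 CPM in KO and WT CD4- cells, and 23.9 and 93.8 CPM in KO and WT CD8+ cells. Cybb, the catalytic subunit of the phagocyte NADPH oxidase, averaged 1403 and 596 CPM in KO and WT CD4+ cells, and 1476 and 734 CPM in KO and WT CD4- cells, and fell in CD8+ cells (log2 -1.95 ± 0.22, adjusted p 1.09e-05 in edgeR). Spib, a transcription factor of pDC, averaged 366 and 148 CPM in KO and WT CD4+ cells, 326 and 151 CPM in KO and WT CD4- cells and 21.5 and 76.0 CPM in KO and WT CD8+ cells. All 8 fell in CD8+ cells and rose in CD4+ cells, and 7 rose in CD4- cells, with Rbpms at 0.32 ± 0.15 there (adjusted p 0.141 in edgeR). The choice by likeness to Cx3cr1 favours these directions.

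**Figure D5:**
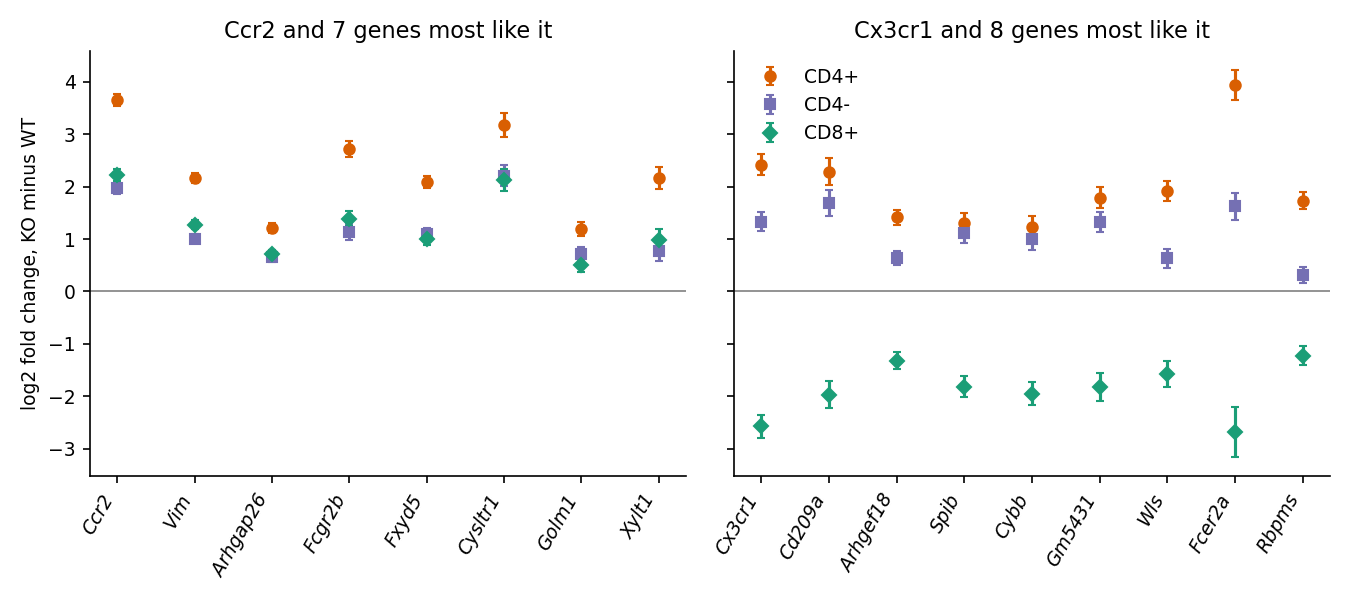
Log2 fold change, KO minus WT, of Ccr2 and 7 of the 8 genes most like it (left). The right side shows Cx3cr1 and the 8 genes most like it. Bars are the standard error derived from the edgeR test. Circles are CD4+, squares CD4- and diamonds CD8+ cells. The diamonds lie above 0 for Ccr2 and its like genes and below 0 for Cx3cr1 and its like genes.

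The sign pattern of Cx3cr1, a rise in CD4+ and CD4- cells with a fall in CD8+ cells, was met by 157 of 13381 genes (1.17%), and the pattern of Ccr2, a rise in all 3, by 400 (2.99%). A rise in both cDC2 populations, whatever the change in CD8+ cells, was met by 1499 (11.2%). Of the 157 genes, 153 reached a mean of 5 CPM in some group, and Cx3cr1 was number 18 of these by the smallest of its 3 changes. The first 8 were Cldn10, Ptgir, Timp2, Ccr1, Hr, Dab2, Clu and Cd209a. Ptgir, the prostacyclin receptor, was at log2 4.24 ± 0.28, 2.53 ± 0.25 and -2.29 ± 0.35 in CD4+, CD4- and CD8+ cells (adjusted p 7.58e-09, 2.15e-06 and 0.000240 in edgeR). Timp2, an inhibitor of metalloproteases, was at 3.38 ± 0.25, 2.25 ± 0.25 and -1.94 ± 0.29 (adjusted p 3.12e-08, 6.83e-06 and 0.000186).

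Markers of other cell types also differed between KO and WT cells, in both directions, and their part in these results was not tested. The counts for CD8+ cells stand against 6.99% rises and 8.67% falls over all genes. In CD8+ cells, 5 of 8 cDC2 markers fell and 1 rose (median log2 -2.01), with a summed level of 289 to 394 CPM in KO and 348 to 462 CPM in WT libraries. Most of the KO sum was Clec12a, the marker that rose (287 CPM in KO and 175 CPM in WT CD8+ cells). Sirpa, a surface marker of cDC2, averaged 17.0 CPM in KO and 71.2 CPM in WT CD8+ cells (log2 -2.06, adjusted p 1.10e-06 in edgeR). Of 10 pDC markers, 5 fell and 1 rose in CD8+ cells (237 to 317 CPM summed in KO and 405 to 562 CPM in WT libraries), of 9 NK cell markers 6 fell (16.6 to 27.0 CPM in KO and 76.8 to 103.6 CPM in WT libraries), of 8 T cell markers 2 fell (6.21 to 15.3 and 16.2 to 42.7 CPM in KO and WT libraries) and of 7 B cell markers 3 fell (11.5 to 18.4 and 36.4 to 50.5 CPM). Most of the NK cell sum was Klrd1, which fell (16.8 CPM in KO and 57.9 CPM in WT CD8+ cells). The cDC2 list shares Irf4, Cd209a and Clec12a, and the pDC list Tcf4, Runx2 and Spib, with genes described above. Of 11 red pulp macrophage markers 3 fell in CD8+ cells (52.5 to 84.8 CPM in KO and 85.0 to 115.7 CPM in WT libraries), and of 10 cDC1 markers 2 rose and 1 fell (14000 to 14629 CPM in KO and 10148 to 11885 CPM in WT libraries). Cd8a itself fell in CD8+ cells (log2 -0.85, adjusted p 0.000292 in edgeR). Of 7 tested classical monocyte markers, 0 passed in CD8+ cells (150 to 220 CPM summed in KO and 187 to 262.5 CPM in WT libraries), with Vcan at 0 in KO and WT and Chil3 at 0 in WT CD8+ libraries, while Ccr2 rose there. Of 7 non-classical monocyte markers 1 rose and 3 fell in CD8+ cells (884 to 1403 CPM in KO and 1238 to 1340 CPM in WT libraries). The largest part of these sums was Nr4a1, which did not pass (476.5 CPM in KO and 607 CPM in WT CD8+ cells).

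In CD4- cells, where Cx3cr1 rose and 14.6% of all genes rose and 11.3% fell, NK cell markers were lower in KO (8 of 9 fell, 183 to 241 CPM summed in KO and 410 to 848 CPM in WT libraries), as were T cell markers (8 of 8 fell, 14.2 to 53.3 CPM in KO and 148 to 293 CPM in WT libraries). Most of the KO sum of NK cell markers was Klrd1, which did not pass (158 CPM in KO and 163 CPM in WT CD4- cells, adjusted p 0.868 in edgeR). In CD4+ cells, where 18.5% of all genes rose and 16.6% fell, 8 of 11 red pulp macrophage markers rose and 1 fell (1122 to 1254 CPM summed in KO and 602 to 683 CPM in WT libraries). In CD4- cells 3 of these rose and 1 fell (490.5 to 593 CPM in KO and 310 to 395.5 CPM in WT libraries). Of 8 cDC2 markers 3 rose and 2 fell in CD4+ cells, and 3 rose and 3 fell in CD4- cells. Esam was among those that fell in both (log2 -4.95 ± 0.27 and -4.30 ± 0.29, adjusted p 1.22e-09 and 3.73e-08 in edgeR). Of 7 tested classical monocyte markers 5 rose in CD4+ cells (157.5 to 262 CPM in KO and 83.8 to 102 CPM in WT libraries, with Chil3 at 0 in KO and Vcan at 0 in WT) and 3 rose in CD4- cells (309 to 397.5 CPM in KO and 168.5 to 265.5 CPM in WT libraries). Of 10 pDC markers 4 rose and 0 fell in CD4+ cells (659 to 826 CPM in KO and 411.5 to 452 CPM in WT libraries), and 4 rose and 0 fell in CD4- cells (703.5 to 855 CPM in KO and 408 to 495 CPM in WT libraries). Of 10 cDC1 markers 5 rose and 1 fell in CD4+ cells (998 to 1064 CPM in KO and 1369 to 1701 CPM in WT libraries), and 6 rose and 1 fell in CD4- cells (2071 to 2908 CPM in KO and 1838 to 2139 CPM in WT libraries). The lower KO sum in CD4+ cells came from Wdfy4, the marker that fell (338 CPM in KO and 1168 CPM in WT CD4+ cells). Of 7 non-classical monocyte markers 2 rose and 4 fell in CD4+ cells (1295 to 2002 CPM in KO and 1894 to 2611 CPM in WT libraries), and 2 rose and 4 fell in CD4- cells (1242 to 1949 CPM in KO and 1835 to 2194 CPM in WT libraries). Most of these sums was Nr4a1, which passed in neither population. It averaged 1071 CPM in KO and 1714 CPM in WT CD4+ cells, and 954 and 1174 CPM in KO and WT CD4- cells. The 2 neutrophil markers tested stayed at or below 2.69 CPM summed in every library.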

How the data were processed

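Poly(A) RNA of sorted cells was sequenced as single-end reads of 59 bases, per the labels' protocols. FastQC 0.11.8, Salmon 0.14.1 and GRCm38 are named in the submitters' processing notes. The authors deposited estimated counts per transcript (117135 transcripts, not normalized) and TPM per transcript (84086 transcripts, scaled within each library), and Salmon's division of reads among similar transcripts affects both. Whether strand was used is not given in the sources used here.

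Transcripts were summed per gene by the tables' gene identifiers. The tables name no gene for 152 transcripts; GENCODE M21 supplied 37 and the other 115, with no more than 0.16% of the counts in any library, were dropped. Sums were rounded, filtered with filterByExpr (13381 genes) and TMM-scaled. CPM use TMM-scaled library sizes. edgeR 4.0.16 under R 4.3.3 fitted 1 mean per group over 18 libraries (12 residual degrees of freedom). The script was tested on simulated data. Alternatives used DESeq2 1.42.0, limma 3.58.1 on log2(TPM + 1) or log2(TPM + 0.1), other scaling, filters, samples, transcripts and blocks, and each library left out. Same-group libraries differed by a chi-square per gene of 9.25 to 31.7, above counting error.

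The labels state no pairing. Deviations of same-numbered libraries correlated above 0.1 for every number between WT populations (0.230 to 0.518), between KO CD8+ and KO cDC2 (0.243 to 0.487) and, across genotypes, between KO CD4+ and WT CD8+ (0.117 to 0.288). They did not between KO CD4+ and KO CD4- (lowest -0.02) or between KO and WT of a population (lowest -0.34).

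Genes, lists and motifs were chosen with earlier results of these data known. Named genes were Adam10, the pair of receptors, list members, the 8 genes most like each receptor and the 8 leading genes with the sign pattern of Cx3cr1. Sirpa, Cd8a, Cd4, Esam, Klrd1, Nr4a1 and Wdfy4 are markers. Some members of these sets are counted but not reported by name here.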

Additional observations from a re-analysis of the deposited data

Results flagged for a closer look

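The knockout effect on Cx3cr1 differed between populations by a test of the difference itself, by 4.99 on the log2 scale between CD4+ and CD8+ cells, by 3.90 between CD4- and CD8+ cells and by 1.09 between CD4+ and CD4- cells. In the first and second of these the directions were opposite, with all 3 KO CD8+ libraries below all 3 WT CD8+ libraries and all KO libraries of CD4+ and CD4- cells above their WT libraries. How many of all genes separate in this way was not counted. The knockout effect on Ccr2 differed by 1.42 between CD4+ and CD8+ cells and by 1.68 between CD4+ and CD4- cells, with the same direction in each population. The WT CD4+ level of Ccr2, 74.2 ± 6.18 CPM (SD, n = 3), was the lowest of the 6 groups.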

How the results depend on the processing

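Of 234 results of the receptor genes under other settings, 225 kept their direction and their side of the threshold, as did 419 of 432 in the fits without 1 library. Every knockout effect within a population kept its call and direction in all of these, with Cx3cr1 in CD8+ cells between -2.86 and -2.36 without 1 library and between -2.73 and -1.91 under the other settings. With only the most abundant transcript, Ccr2 missed the threshold for KO CD4+ minus KO CD4- (-0.45, adjusted p 0.143) and KO CD4+ minus KO CD8+ (0.35, 0.0890), and Cx3cr1 for the effect in CD4+ minus CD4- (1.27, 0.0695). With only the groups compared, Ccr2 KO CD4+ minus KO CD4- was -0.46 (0.0880). The Cx3cr1 effect in CD4+ minus CD4- was 1.21 (0.129) on log2(TPM + 0.1) and 1.03 (0.0529) on TMM-scaled TPM, and WT CD4+ minus WT CD8+ 0.59 (0.0934) on log2(TPM + 0.1). Cx3cr1 KO CD4+ minus KO CD4-, never called, was -0.00721 on log2(TPM + 1), -0.00725 on log2(TPM + 0.1) and -0.00873 without KO CD4- library 1. The causes were not tested. Without 1 library each, the ranges were -0.60 to -0.35 for Ccr2 KO CD4+ minus KO CD4-, 0.98 to 1.18 for the Cx3cr1 effect in CD4+ minus CD4-, 0.45 to 0.82 for Cx3cr1 WT CD4+ minus WT CD8+ and -0.00873 to 0.19 for Cx3cr1 KO CD4+ minus KO CD4-. The replicate block by number changed no call: with it Cx3cr1 in CD8+ cells was at -2.57 (adjusted p 7.28e-07 in edgeR). The labels do not say that equal numbers share an animal, so this block cannot show whether shared animals matter. The replicate block within genotype was not applied to KO minus WT within a population. It changed no call in the other comparisons. Genes called went to 2811 (CD4+, against 4692), 1895 (CD4-, against 3471) and 1199 (CD8+, against 2095) with 1 transcript per gene, and to 3125 and 1321 in CD4+ and CD8+ cells on TMM-scaled TPM. Cx3cr1 in KO CD8+ cells rests on 81 to 173 estimated reads per library, so its level there is the least precise.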
